A study of Mus musculus with 24 samples.

Results

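Atf4 and 9 other regulators of the integrated stress response were followed through cerebellum, liver and testes of mice with and without Thumpd1, a protein that binds tRNA and brings the acetyltransferase Nat10 to it. The genes were taken by symbol from the deposited table and were Atf4, Atf5, Atf3, Cebpb, Cebpg, Ddit3, Trib3, Chac1, Nupr1 and Sesn2. They filled 11 of the 55450 rows, because Ddit3 stood under 2 identifiers that were kept apart. RNA had been sequenced from 4 wild-type (WT) and 4 knockout (KO) libraries per tissue, 24 libraries in all. WT libraries carried replicate labels 1 to 4 and KO libraries 5 to 8. The KO mice descended from C57BL/6N eggs injected with Cas9 and guide RNAs against Thumpd1 and were kept on a C57BL/6 background. WT mice were littermates, and animals were 6 to 12 weeks old per the labels. The methods describe mice of either sex, and testes come from males only. The study calls its RNA-seq replicates biological, but the labels did not tie libraries to animals, and p-values measure the spread between these libraries. The alleles were constitutive, and no treatment separated the groups.

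The integrated stress response begins with kinases that phosphorylate the translation initiation factor eIF2, among them Gcn2 (gene Eif2ak4), which senses uncharged tRNA and stalled ribosomes. General translation then falls, while a few messages with upstream reading frames, Atf4 first among them, are translated more. Atf4 protein pairs with C/EBP factors on composite C/EBP-ATF elements and switches on genes for amino acid synthesis, amino acid uptake and tRNA charging. Ddit3, Trib3, Chac1, Nupr1, Sesn2, Atf3 and Atf5 are known outputs of this programme that also feed back on it. Transcript levels alone were measured here, and neither eIF2 phosphorylation nor Atf4 protein was.

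Total counts ran from 16353797 to 37889615 per library, and 3 counts, taken as the most that a zero can hide, stood for 0.0792 to 0.183 CPM, the usual unit of a count scaled to its library's total. That bound covers counting error only. Thumpd1 lay between 9.19 and 26.3 CPM in WT libraries and between 0 and 1.14 in KO libraries, with no overlap in any tissue. The summed markers of each labelled tissue were high in that tissue, at 4062 CPM or more for cerebellum, 49236 or more for liver and 7185 or more for testes. The summed liver markers reached 964 CPM in cerebellum, through Ttr, a gene of liver and choroid plexus. Ttr was at 935 and 962 CPM in cerebellum WT replicates 1 and 2, at 1.09 and 0.816 in WT replicates 3 and 4, at 1.87 and 1.96 in KO replicates 5 and 6, and at 317 and 312 in KO replicates 7 and 8. Libraries with neighbouring numbers were thus alike in Ttr, and whether they share an animal or a dissection is not given in the sources used here. An alternative chosen after seeing the data therefore summed neighbouring libraries, which leaves 2 samples per group. Outside cerebellum neighbours were not always alike over all genes. The chi-square per gene, larger where libraries differ more, was 9.16 for liver WT replicates 1 and 2 and 346 for replicates 3 and 4. In WT testes it was 12.4 for replicates 1 and 2 and 2.31 for replicates 3 and 4. Among all genes tested, 3.93% were called higher and 2.51% lower in KO cerebellum, 2.79% and 3.12% in KO liver, and 9.74% and 10.7% in KO testes. A gene was called when its Benjamini-Hochberg adjusted p from limma was under 0.05. In bulk tissue, fewer cells of a type and less RNA per cell cannot be told apart.

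The C/EBP-ATF element was searched in the RefSeq promoter sequences of build GRCm38.p6, from 250 bases before to 50 bases after each start, as TGATGNAA on either strand (TTNCATCA when read on the other). It was found in promoters of 4 of the 10 genes, Atf3, Chac1, Nupr1 and Trib3, beside 4.51% of all 27025 genes in the table. The matches are shown because these letters are what links the regulators to Atf4 in the textbook scheme. Capitals mark the matching letters, and every line reads 5′ to 3′ on the gene's strand. The Chac1 window is at chr2:119351023-119351082 on the plus strand, and the others are on the minus strand at chr1:191183410-191183469 (Atf3), chr7:126625547-126625606 (Nupr1) and chr2:152344028-152344057 (Trib3).
Chac1: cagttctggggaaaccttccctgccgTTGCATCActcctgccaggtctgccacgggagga
Atf3: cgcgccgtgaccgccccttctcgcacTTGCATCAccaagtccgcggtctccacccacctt
Nupr1: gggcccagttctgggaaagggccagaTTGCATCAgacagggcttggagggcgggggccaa
Trib3: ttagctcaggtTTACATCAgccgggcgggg
The Chac1, Atf3 and Nupr1 windows share the same 8 letters, which begin at position -193 from the Chac1 start and at position -110 from the Atf3 and Nupr1 starts. The Trib3 match differs in 1 letter and begins at position 15. A match is a description of these windows and not a site of binding.

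In cerebellum, 5 of the 9 rows tested were called higher in KO (Atf4, Atf5, Ddit3, Chac1 and Sesn2) and 0 lower, against 3.93% and 2.51% of all genes. The median log2 change over the 9 rows was 0.46, beside -0.01 over all 16225 genes tested. Trib3, whose WT mean lay under 1 CPM, passed the filter through the KO libraries, and without it 5 of 8 were called and the median was 0.42. At an unadjusted p under 0.05, limma had 6 higher, which were the 5 called and Trib3, and 0 lower. Of all genes, 12.3% were higher and 11.9% lower. edgeR and DESeq2 each called 5 higher and 0 lower, but shares of all genes were not taken for these tools. With neighbouring libraries summed, Atf5 (limma adjusted p = 0.00755) and Chac1 (0.0492) were called, and Atf4 (0.0565), Sesn2 (0.0759) and Ddit3 (0.14) were not, while their log2 changes stayed at 0.33, 0.49 and 0.47. Trib3, Nupr1, Cebpb and Cebpg did not pass, and Atf3 and the second Ddit3 identifier were too low to be tested.

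Atf4, the transcription factor at the centre of the response (chr15:80255184-80257541, plus strand, mm10), had 79.5, 77.8, 72.1 and 74.3 CPM in the WT cerebellum libraries and 99.5, 94.2, 95.8 and 92.9 CPM in the KO libraries. The lowest KO library stood above the highest WT library. This came to a log2 change of 0.33 ± 0.0427 (SE, n = 4 per group, 95% interval 0.24 to 0.42, limma adjusted p = 0.00105).

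Atf5, a relative of Atf4 whose message is also controlled through upstream reading frames, had the smallest p of the set. Its WT values were 15.5, 16.6, 16.4 and 14.7 CPM and its KO values 29.7, 28.4, 28.6 and 27.7 CPM. The groups were far apart relative to their spread, with means of 15.8 ± 0.868 and 28.6 ± 0.83 CPM (SD, n = 4). The log2 change was 0.84 ± 0.0583 (SE, 95% interval 0.71 to 0.96, limma adjusted p = 9.97e-06). Atf5 lies at chr7:44812256-44816658 on the minus strand, and 82 of its exonic bases overlap Il4i1 and Nup62 on the other strand. The kit kept strand, but the strand used in counting was not given in the sources used here.

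Among the outputs of the response, Chac1, an enzyme that breaks down glutathione (chr2:119351229-119354381, plus strand), moved most in size. It had 2.77, 2.75, 3.43 and 3.42 CPM in WT and 6.67, 6.18, 7.66 and 7.95 CPM in KO cerebellum. Every KO library was above every WT library. The log2 change was 1.19 ± 0.137 (SE, n = 4 per group, 95% interval 0.89 to 1.49, limma adjusted p = 0.000464).

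Sesn2, a leucine-binding protein that restrains mTORC1 (chr4:132492032-132510501, minus strand), had 9.01, 10.2, 10.3 and 8.36 CPM in WT and 14.3, 12.0, 13.8 and 13.8 CPM in KO. The groups did not overlap. Its log2 change was 0.49 ± 0.0895 (SE, 95% interval 0.30 to 0.68, limma adjusted p = 0.00809).

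Ddit3, the transcription factor CHOP that is linked to cell death under lasting stress (ENSMUSG00000025408.15, chr10:127290774-127296288, plus strand), had 7.51, 6.47, 5.94 and 5.66 CPM in WT and 10.3, 8.56, 8.33 and 8.95 CPM in KO. WT replicate 1 was the highest of its group and still below every KO library. The log2 change was 0.46 ± 0.104 (SE, 95% interval 0.24 to 0.69, limma adjusted p = 0.0222). This call was the least firm of the 5. It was lost without WT replicate 3 (adjusted p = 0.067), WT replicate 4 (0.0684), KO replicate 5 (0.0678) or KO replicate 8 (0.0536). Of its exonic bases, 68 overlap Mars, itself called higher in KO cerebellum at a log2 change of 0.35, and 13 overlap Gm4189, both on the other strand.

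The second Ddit3 identifier (ENSMUSG00000116429.1, chr10:127290829-127293753) has 105 exonic bases, all shared with the first. It held at most 2.85 counts in any of the 24 libraries, under the bound of 3 counts, and no change is read from it. Reads placed in the shared bases could have been split between the identifiers.

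Trib3, a pseudokinase that feeds back on Atf4 (chr2:152337422-152344032, minus strand), had 0.866, 1.01, 1.03 and 0.765 CPM in WT and 1.75, 1.41, 1.53 and 1.16 CPM in KO cerebellum. No KO library fell within the WT range, but these values rest on 15 to 31 counts per library, and the gene reached the filter mostly through the KO libraries. Its log2 change of 0.57 (95% interval 0.14 to 1.00) had a limma adjusted p of 0.102. Nupr1, a small chromatin protein induced by stress (chr7:126623249-126630861, minus strand), had 1.30 to 2.22 CPM in WT and 1.87 to 2.50 CPM in KO, and the groups overlapped (log2 change 0.38, adjusted p = 0.263).

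The C/EBP partners of Atf4 did not pass in cerebellum. Cebpb (chr2:167688915-167690418, plus strand, with 312 exonic bases opposite Tmem189) had 1.89 to 2.64 CPM in WT and 2.51 to 3.47 CPM in KO (log2 change 0.26, adjusted p = 0.346). Cebpg (chr7:35046422-35056573, minus strand) had 40.8 to 43.3 CPM in WT and 36.4 to 45.8 CPM in KO. With a log2 change of -0.09 and a 95% interval from -0.22 to 0.05, a rise of the size of that of Atf4 lay outside its interval. Atf3, a factor of the same basic leucine zipper class induced by many stresses (chr1:191170296-191218039, minus strand), had 0.347, 0.526, 0.817 and 0.408 CPM in WT and 1.02, 1.28, 0.46 and 0.684 CPM in KO. Its groups overlapped, and in a fit without the filter its adjusted p was 0.476.

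**Figure D1:**
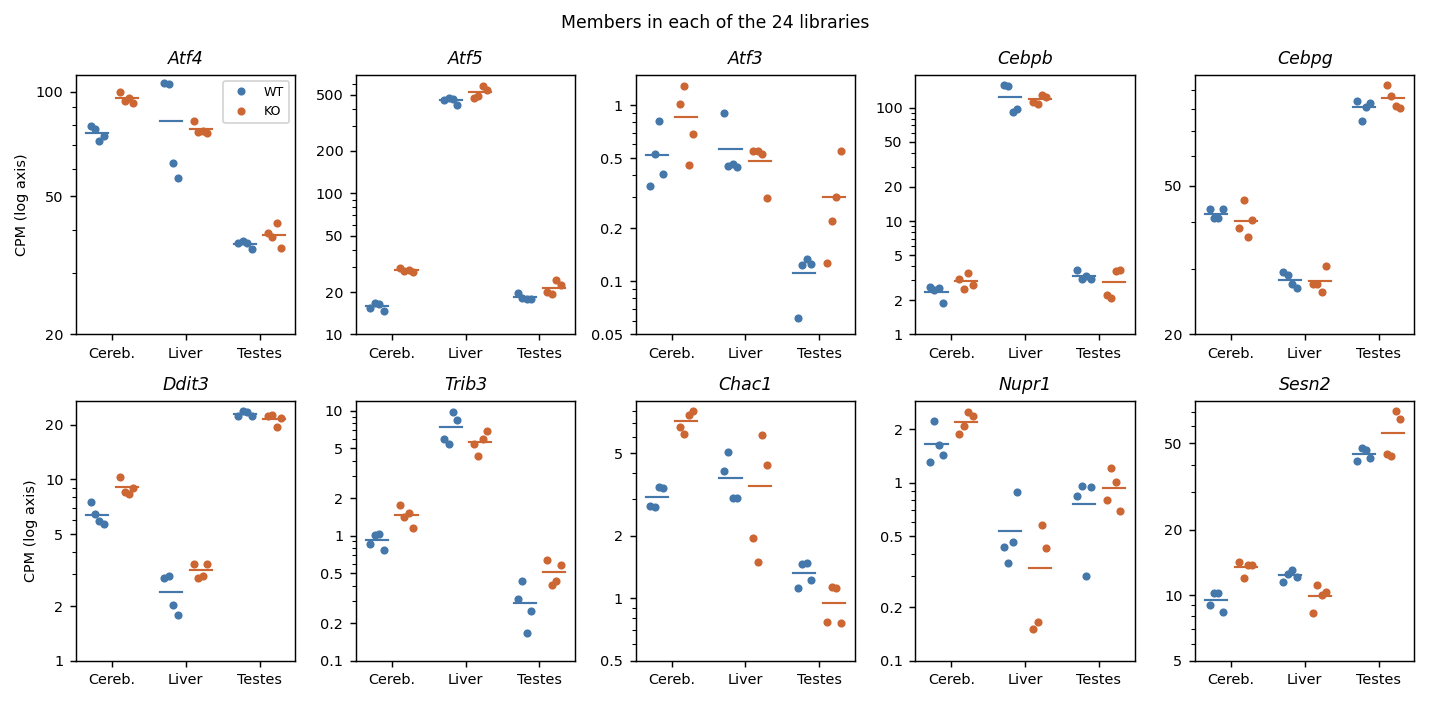
CPM (log axis) of the 10 genes in each of the 24 libraries, by tissue, with WT in blue, KO in orange and a bar at each group mean. In cerebellum the KO points of Atf4, Atf5, Ddit3, Chac1 and Sesn2 all lie above the WT points, while in liver the WT points of Atf4 spread from 56.3 to 106 CPM.

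Forebrain markers moved with genotype in the same cerebellum libraries. The summed level of 7 forebrain genes was 9.87 to 11.7 CPM in WT and 24.5 to 48.2 CPM in KO. Of the 5 tested, 2 were called higher (Nrgn, log2 change 3.42, and Bcl11b, 1.52), against 3.93% of all genes. The summed level of 17 midbrain genes was 23.97 to 36.03 CPM in WT and 35.1 to 41.3 CPM in KO, and the groups overlapped. Of the 6 midbrain genes tested, 3 were called higher, against the same 3.93%. Their sum reached 102 CPM in liver and 36.0 CPM in testes, so it does not mark midbrain alone. The midbrain factors Foxa1 and Foxa2 had no count in any cerebellum library. Of the 8 cerebellar markers, 3 were called lower (Zic1, log2 change -0.21, Gabra6, -0.26, and Neurod1, -0.22) and 1 higher (Pcp2, 0.24). Of all genes, 2.51% were lower and 3.93% higher. With the summed midbrain level as a covariate, 3 regulators were called, and Ddit3 (log2 change 0.31, adjusted p = 0.291) and Sesn2 (0.42, 0.126) were not. The part of the forebrain markers in the result was not tested. In 1 fit of all 24 libraries, Atf5 alone was called, and the log2 changes of Atf4 (0.35, adjusted p = 0.29), Chac1 (1.197, 0.109), Ddit3 (0.49, 0.198) and Sesn2 (0.54, 0.445) kept their sign and size.

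In liver no regulator was called, against 2.79% of all genes higher and 3.12% lower. The 8 rows tested had a median log2 change of -0.01, beside -0.00308 over all 12816 genes. At an unadjusted p under 0.05, limma had 1 higher and 1 lower of the 8, where 11.1% and 12.2% of all genes were. edgeR called 0, and DESeq2 called 1 higher, which was Atf5. The spread within the groups was wide for several of these genes.

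Atf4 in liver had 106, 105, 62.4 and 56.3 CPM in the WT libraries and 82.1, 76.3, 76.9 and 76.2 CPM in the KO libraries. The KO values fell in the gap between WT replicates 1 and 2 and WT replicates 3 and 4. The log2 change was 0.02 ± 0.157 (SE, n = 4 per group, 95% interval -0.33 to 0.36, limma adjusted p = 0.965), so that a change as large as the one in cerebellum lay within the interval.

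The same split of WT liver libraries was seen in Cebpb, with 157, 154, 91.7 and 97.9 CPM, and in Ddit3, with 2.85, 2.95, 2.02 and 1.78 CPM. Trib3 had the opposite order, with 5.92, 5.47, 9.80 and 8.48 CPM. In KO liver, Cebpb had 112, 107, 130 and 123 CPM, Ddit3 3.41, 2.87, 2.93 and 3.40 CPM, and Trib3 5.41, 4.35, 5.94 and 6.87 CPM. All 3 genes overlapped between genotypes, and their log2 changes were -0.02, 0.34 and -0.36 (limma adjusted p = 0.953, 0.269 and 0.373). The 6 abundant noncoding RNAs took 17.5% and 19.0% of the counts in WT replicates 1 and 2 and 23.1% and 31.0% in WT replicates 3 and 4. In KO liver they took 27.2% and 26.4% in replicates 5 and 6 and 18.8% and 17.5% in replicates 7 and 8, while Atf4 stayed between 76.2 and 82.1 CPM. Their part in the split was not tested, and the sources gave no batch.

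**Figure D2:**
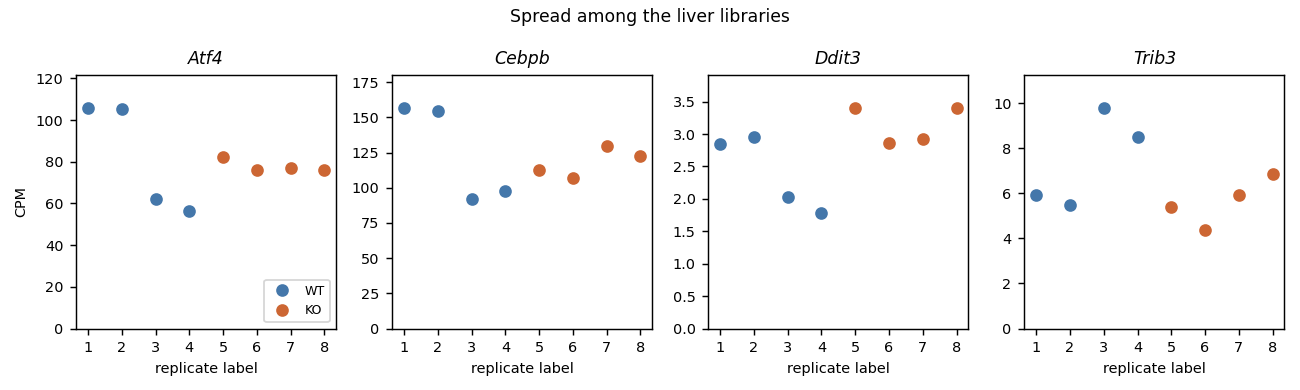
CPM of Atf4, Cebpb, Ddit3 and Trib3 in the 8 liver libraries, by replicate label, with WT in blue and KO in orange; each axis starts at 0. WT replicates 1 and 2 stand above WT replicates 3 and 4 for Atf4 (106 and 105 against 62.4 and 56.3), Cebpb and Ddit3, and below them for Trib3.

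Atf5 was close to the threshold in liver, where its level was highest. Its WT values were 458, 475, 468 and 425 CPM and its KO values 477, 492, 580 and 537 CPM. No KO library fell within the WT range, though KO replicate 5 exceeded WT replicate 2 by little. The log2 change was 0.21 ± 0.0616 (SE, 95% interval 0.08 to 0.35, limma adjusted p = 0.0699). It was called by DESeq2 (adjusted p = 0.0191), with sample quality weights (0.0208), in 1 fit of all 24 libraries (0.00425) and without WT replicate 4 (0.0464).

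Sesn2 lay the other way in liver, with 11.6, 12.5, 13.1 and 12.2 CPM in WT and 8.32, 11.1, 10.1 and 10.3 CPM in KO. Each KO value was below each WT value, but the log2 change of -0.31 ± 0.105 (SE, 95% interval -0.55 to -0.08) had a limma adjusted p of 0.106. Chac1 spread widely in KO, with 4.09, 5.08, 3.05 and 3.04 CPM in WT and 1.95, 1.49, 6.12 and 4.40 CPM in KO. The KO libraries alone spanned a 4.12-fold range, from below all WT libraries to above them, and the interval of the log2 change ran from -0.98 to 0.60. Cebpg had 26.6 to 29.4 CPM in WT and 26.02 to 30.5 CPM in KO, and its interval of -0.14 to 0.15 was narrow. Atf3 (0.297 to 0.899 CPM) and Nupr1 (0.15 to 0.889 CPM) were not tested, and without the filter their adjusted p were 0.693 and 0.575.

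In testes no regulator was called either, where 9.74% of all genes were higher and 10.7% lower. The 7 rows tested had a median log2 change of 0.01. At an unadjusted p under 0.05, limma had 0 higher and 2 lower (Ddit3 and Chac1), where 18.1% and 18.8% of all genes were. Chac1 passed the filter through its WT libraries, and no difference is read for it. edgeR and DESeq2 called 0. Atf4 had 36.6, 37.1, 36.6 and 35.3 CPM in WT and 39.2, 38.02, 41.9 and 35.6 CPM in KO. The groups overlapped through KO replicate 8, and the log2 change was 0.01 (95% interval -0.12 to 0.15; limma adjusted p = 0.877). The rise seen in cerebellum lay outside that interval.

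Ddit3, highest of the 3 tissues in testes, had 22.4, 23.8, 23.6 and 22.4 CPM in WT and 22.4, 22.6, 19.5 and 21.9 CPM in KO. The groups overlapped (log2 change -0.20 ± 0.0821, SE; limma adjusted p = 0.0999). Chac1 had 1.12, 1.46, 1.47 and 1.23 CPM in WT and 0.768, 1.14, 1.12 and 0.761 CPM in KO, and it passed the filter through the WT libraries, so that neither its size nor a call is read as a fall. Its log2 change was -0.58 ± 0.203 (adjusted p = 0.0636). Without WT replicate 1 its adjusted p was 0.0485, and with sample quality weights 0.0372. Ddit3 was called lower in 1 fit of all 24 libraries (-0.23, adjusted p = 0.0428).

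Sesn2 and Cebpb divided the KO testes libraries in pairs. Sesn2 had 44.9 and 43.9 CPM in KO replicates 5 and 6 but 70.6 and 64.8 CPM in replicates 7 and 8, beside 41.5 to 47.5 CPM in WT. Cebpb had 2.21 and 2.09 CPM in KO replicates 5 and 6 and 3.604 and 3.67 CPM in replicates 7 and 8, beside 3.08 to 3.71 CPM in WT. Neither passed (log2 change 0.24, adjusted p = 0.234, and -0.33, adjusted p = 0.206), but Cebpb was called lower with sample quality weights (-0.63, adjusted p = 0.00353). Atf5 had 17.7 to 19.8 CPM in WT and 19.4 to 24.2 CPM in KO (0.12, adjusted p = 0.253), and Cebpg 74.5 to 84.4 and 80.5 to 92.9 CPM (0.05, adjusted p = 0.618). Atf3, Trib3 and Nupr1 were not tested, and without the filter their adjusted p were 0.237, 0.21 and 0.705.

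Cell type markers also moved with genotype in testes. The summed level of 10 Sertoli cell genes was 247 to 287 CPM in WT and 329 to 459 CPM in KO. Of these 10 genes, 6 were called higher, against 9.74% of all genes. The summed level of 10 round spermatid genes was 1412 to 1440 CPM in WT and 1128 to 1332 CPM in KO. Here 5 of 10 were called lower, against 10.7% of all genes. With the summed Sertoli level as a covariate no regulator was called, and the signs of Sesn2 (log2 change -0.37), Atf5 (-0.09), Ddit3 (0.04) and Atf4 (-7.89e-05) turned. The Sertoli level did not overlap between genotypes, so this fit cannot tell the level and genotype apart, and nothing is read from it.

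**Figure D3:**
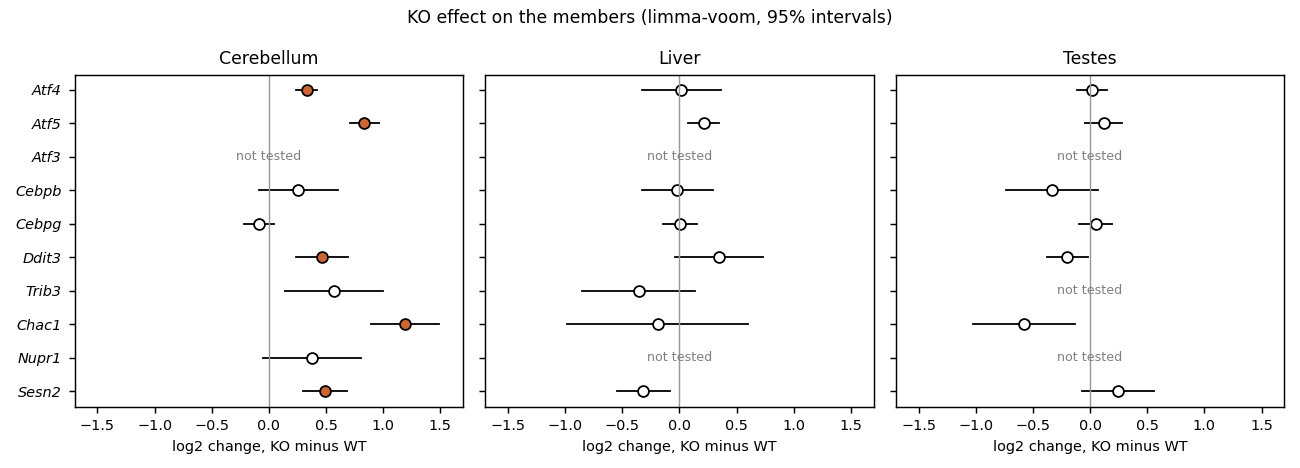
Log2 change (KO minus WT) of the 10 genes in each tissue from limma-voom, with 95% intervals as lines; orange points passed an adjusted p of 0.05 and white points did not. The 5 orange points are all in cerebellum, and the liver intervals of Atf4 (-0.33 to 0.36) and Chac1 (-0.98 to 0.60) are the widest for those genes.

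Whether the KO effect itself differed between tissues was tested for the 7 regulators that passed the filter in all 3 tissues. The contrasts share libraries and are not independent of each other. Between cerebellum and liver, 3 of 7 differed, against 7.67% of 11112 genes. The effect in cerebellum exceeded that in liver by 0.64 for Atf5 (limma adjusted p = 6.88e-05), by 1.35 for Chac1 (0.0222) and by 0.80 for Sesn2 (0.027) on the log2 scale. The call for Chac1 was lost without liver WT replicate 2 (adjusted p = 0.0565) or liver KO replicate 5 (0.0503), and that for Sesn2 without cerebellum WT replicate 1 (0.0535), WT replicate 4 (0.0603), KO replicate 5 (0.054) or KO replicate 7 (0.0553). For Atf4 the difference of 0.34 had an adjusted p of 0.181, with a 95% interval of 0.01 to 0.67, and it was called without liver WT replicate 4 (0.0361). For Ddit3 it was 0.07 (0.866). When the genes that passed the filter in at least 1 tissue were tested, Chac1 (0.0896) and Sesn2 (0.102) were not called.

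Chac1 passed the filter in testes through its WT libraries, so its value there (-1.82 against cerebellum, limma adjusted p = 0.00765) is given with no difference read from it. Of the other 6 regulators, 2 differed between testes and cerebellum, against 14.5% of genes, both with the lower effect in testes. The differences were -0.75 for Atf5 (limma adjusted p = 4.6e-05) and -0.72 for Ddit3 (0.0031). For Atf4 the difference was -0.37 (0.141) and for Sesn2 -0.33 (0.256). Between testes and liver, 1 of these 6 differed, a share near the 15.9% of all genes. It was Ddit3 with -0.65 (limma adjusted p = 0.0158), which was not called on the genes that passed in at least 1 tissue (0.0849). Sesn2 was near the threshold there (0.47, adjusted p = 0.0662), and it passed with edgeR (0.0356), with quantile normalization of all 24 libraries (0.0419), with a replicate block (0.0108) and without testes KO replicate 5 (0.0197) or KO replicate 6 (0.0175). With the block, Cebpb differed between testes and cerebellum as well (-0.63, adjusted p = 0.0459, against 0.324 without it).

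The regulators were not all highest in the same WT tissue. Of the 9 rows tested, 7, 8 and 8 differed between cerebellum and liver, testes and liver, and testes and cerebellum, against 85.5%, 89.7% and 89.4% of all genes. A share of that size in all genes leaves little to read from the counts, and the sizes say more. The 9 rows include Trib3 and Nupr1, whose WT means lay under 1 CPM in at least 1 tissue of each comparison. The scale mattered as well, since the median gene differed between cerebellum and liver by 1.35 on the log2 scale in CPM, by -0.04 with TMM factors and by -0.22 after quantile normalization. A group of 6 abundant noncoding RNAs took 17.5% to 31.0% of the counts in liver and 4.56% to 7.41% in the other tissues. For testes and liver these medians were 1.18, 0.88 and -0.26. For testes and cerebellum they were -0.21, 0.41 and -0.27.

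Atf5 and Cebpb were liver genes among the regulators under every scaling. With TMM factors, the log2 difference of Atf5 from liver was -6.04 ± 0.109 (SE) in cerebellum and -5.57 ± 0.0939 in testes, and that of Cebpb -6.86 ± 0.36 and -6.14 ± 0.278. Trib3 had mean WT values of 7.42 CPM in liver, 0.919 in cerebellum and 0.291 in testes. Its WT means outside liver lay under 1 CPM, so it entered this comparison mostly through liver, and no test is read for it. Ddit3, Cebpg and Sesn2 were highest in testes, with log2 differences from cerebellum of 2.10, 1.202 and 2.49 and from liver of 2.34, 0.59 and 0.92. For Cebpg the order of cerebellum and liver turned with the scaling (0.59 in CPM, -0.61 with TMM factors), as it did for Ddit3 (1.41 in CPM, -0.42 after quantile normalization) and for Nupr1. Atf4 was lowest in testes (-2.06 from liver and -0.80 from cerebellum with TMM factors). Between cerebellum and liver its difference was -1.26 with TMM factors, -1.31 with edgeR and -0.86 after quantile normalization, each called, and -0.12 in CPM.

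Within a tissue, levels can be compared between genes once divided by exon length, here as length-scaled CPM. In WT cerebellum, Atf4 was the most abundant at 85.7 ± 2.48 (SD, n = 4), with Atf5 at 21.1 ± 1.40 and Cebpg at 19.9 ± 0.732 next and not separated by their spread. In WT liver the order began with Atf5 at 280 ± 37.96, Cebpb at 104 ± 39.6 and Atf4 at 43.7 ± 18.5. In WT testes, Atf4 (35.5 ± 1.18), Cebpg (33.1 ± 2.03), Ddit3 (30.9 ± 1.02) and Sesn2 (29.5 ± 1.74) lay close together, with Atf5 at 21.2 ± 1.45. Atf3 was the lowest or close to it in each tissue, at 0.653, 0.328 and 0.118.

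The other genes of the response were described with a list of 49 genes, in 4 groups. In cerebellum, 21 of the 42 tested were called higher and 0 lower, against 3.93% and 2.51% of all genes, with a median log2 change of 0.19. At an unadjusted p under 0.05, limma had 29 higher and 3 lower, where 12.3% and 11.9% of all genes were. edgeR called 21 higher and 0 lower, and DESeq2 21 higher and 1 lower. Among genes of amino acid and one-carbon synthesis, 6 of 12 rose, led by Mthfd2, the mitochondrial folate dehydrogenase (0.72), and Asns, asparagine synthetase (0.50; 33.4 ± 1.05 CPM in WT and 47.8 ± 2.63 in KO). Among amino acid transporters, 5 of 9 rose. Slc7a3, a carrier of arginine and lysine, had 0.637 ± 0.0951 CPM in WT and 3.54 ± 0.903 in KO (SD). Its WT mean lay under 1 CPM, so it passed the filter through the KO libraries and had to differ, and no test is read for it. Without it, 20 of 41 genes of the list and 4 of 8 transporters were called higher. The neutral amino acid carrier Slc1a4 rose by 0.57 on the log2 scale. Slc7a11, the cystine carrier, had 45.7 ± 0.633 CPM in WT and 43.1 ± 1.74 in KO and did not pass.

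Genes of tRNA charging rose in the largest share, with 9 of 13 called. Aars had 137 ± 3.30 CPM in WT and 177 ± 6.21 in KO (SD, log2 change 0.38, limma adjusted p = 0.000247), Cars rose by 0.46 and Sars by 0.33 on the log2 scale. Aars shares 1326 exonic bases with Exosc6 on the same strand and Cars 211 with Gm15580 on the other, and their counts are uncertain to that extent. Of the stress outputs, 1 of 8 rose, Vegfa (0.24). Ppp1r15a, which brings a phosphatase to eIF2, had a log2 change of -0.02 (adjusted p = 0.906) and Ddit4, an mTORC1 inhibitor, 0.16 (0.242). The list had 12 calls with the midbrain covariate, 8 in 1 fit of all 24 libraries and 8 with neighbouring libraries summed.

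In liver 2 of the 40 tested were called higher and 6 lower, against 2.79% and 3.12% of all genes, with a median log2 change of -0.08. Asns had 1.46 ± 0.854 CPM in WT and 10.05 ± 3.42 in KO (SD, log2 change 2.72, limma adjusted p = 0.00628), and Fgf21, a hormone secreted by stressed liver, had 0.464 ± 0.36 and 2.16 ± 0.539 CPM. The WT mean of Fgf21 lay under 1 CPM, so it too passed the filter through the KO libraries and no test is read for it. With only the 38 genes whose mean was at least 1 CPM in both genotypes, 1 was called higher and 6 lower. The carriers Slc3a2 (-0.34), Slc1a4 (-0.40) and Slc6a9 (-0.72), the transaminase Gpt2 (-0.34), Aars (-0.26) and the tRNA exporter Xpot (-0.26) fell. The Asns window with the motif is shown because Asns was called in all 3 tissues. It lies on the minus strand of GRCm38.p6 at chr6:7693210-7693258, with the match in capitals.
Asns: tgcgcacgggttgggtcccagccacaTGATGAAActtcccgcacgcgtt
Of the response genes tested in liver with a promoter entry, and with a mean of at least 1 CPM in both genotypes, 1 of 10 with the motif was called higher and 2 lower, and 0 of 18 without it higher and 4 lower. Fgf21 is not among them. Over all genes tested in liver, 4.63% with the motif and 2.75% without it were called higher. The count of 8 called in liver was 4 without any one of WT replicates 1, 2 or 3 or KO replicate 6, and 5 without KO replicate 5 or 8. With neighbouring libraries summed it was 0.

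In testes the shares called by limma were no larger than those of all genes (9.74% higher and 10.7% lower). At an unadjusted p under 0.05, limma had 10 higher and 4 lower, where 18.1% and 18.8% of all genes were. edgeR called 4 higher and 3 lower, and DESeq2 7 higher and 4 lower. Of 40 tested, 3 were called higher, the carriers Slc7a1 (0.53) and Slc38a2 (0.31) and the synthetase Iars (0.30), and 4 lower, Asns (-0.20), Psph (-0.29), Herpud1 (-0.26) and Tnfrsf10b (-0.43). Asns was thus called in all 3 tissues, higher in cerebellum and liver and lower in testes, where WT libraries had 116 ± 2.77 CPM and KO libraries 102 ± 5.61. The median over the list was 0.12. The count of 7 moved to 2 without WT replicate 3 or 4, to 3 without KO replicate 7, to 4 without WT replicate 2 and to 12 without KO replicate 5. With the Sertoli covariate, whose level did not overlap between genotypes, it was 0, as it was with neighbouring libraries summed.

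**Figure D4:**
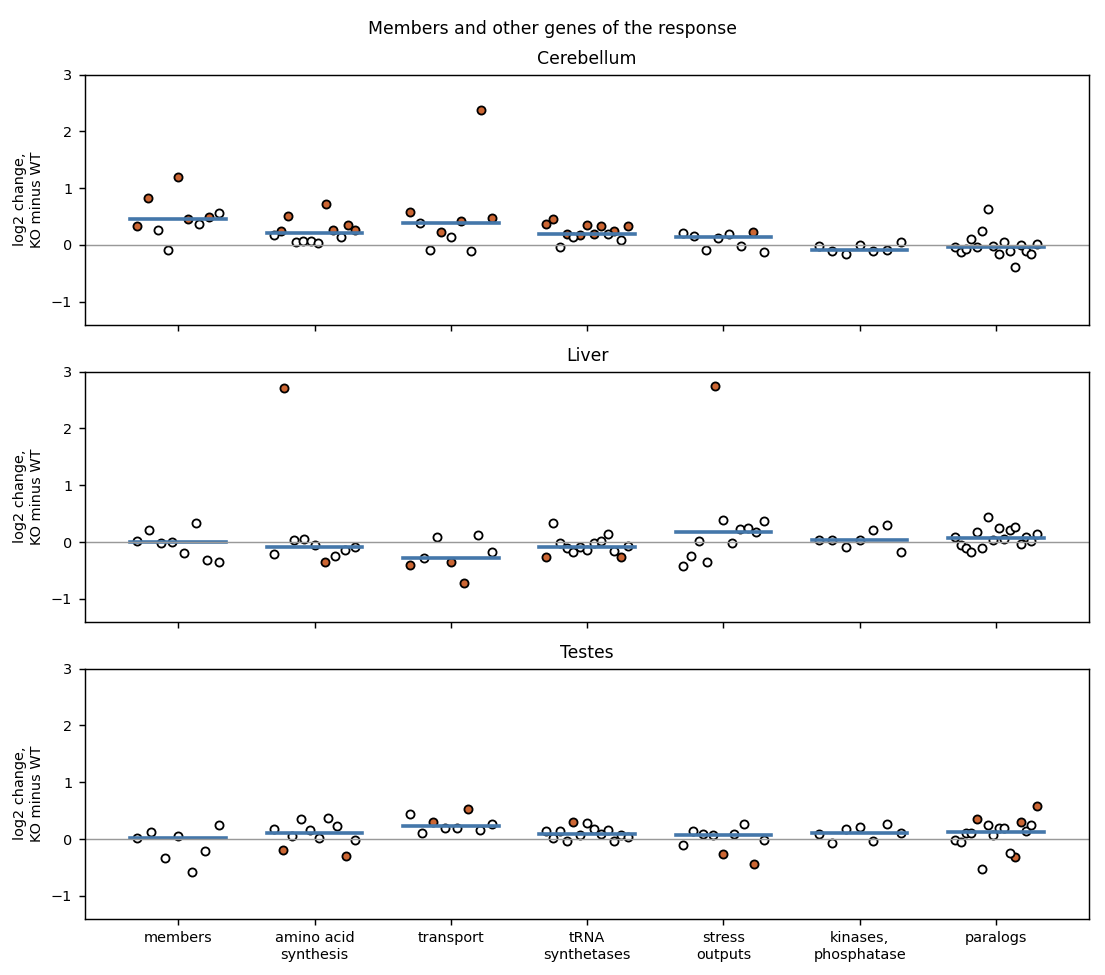
Log2 change (KO minus WT) of every tested gene of the 10 regulators and of the lists of related genes, by tissue, with orange for an adjusted p under 0.05 and a blue line at each list's median. In cerebellum the filled points all lie above 0, whereas in liver and testes they lie on both sides.

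Genes with and without the letters of the C/EBP-ATF element rose in cerebellum, and the difference between them was not tested. Response genes without a promoter entry are left out of these counts. Of the response genes tested there with a promoter entry, 5 of 12 with the motif and 8 of 20 without it were called higher. Among the regulators it was 1 of 3 with the motif (Chac1) and 4 of 6 without it. The 3 include Trib3, which passed the filter through the KO libraries. Over all genes, 5.23% of 287 with the motif and 4.09% of 10581 without it were called higher. No match says only that these letters are not in this window.

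The kinases upstream and the relatives of the regulators were described in the same way. Of 7 genes for the eIF2 kinases and related factors, limma called 0 in any tissue. At an unadjusted p under 0.05 it had 1 lower in cerebellum, 1 higher and 1 lower in liver and 1 higher in testes, beside the shares of all genes given above for each tissue. edgeR called 1 lower in cerebellum and 1 higher in testes, and DESeq2 1 higher in testes. Eif2ak4, the gene of Gcn2, had 45.3 ± 1.97 CPM in WT and 45.9 ± 2.56 in KO cerebellum (SD, n = 4; log2 change 0.00344, limma adjusted p = 0.977). Eif2ak3, the kinase of the endoplasmic reticulum, had 46.5 ± 1.31 and 42.3 ± 1.11 CPM there (-0.15, 0.0534).

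Of 17 paralogs of the regulators, 16 were tested in each tissue. In cerebellum limma called 0, with 1 higher and 3 lower at an unadjusted p under 0.05 (12.3% and 11.9% of all genes), while edgeR called 0 and DESeq2 3 lower. In liver limma called 0, with 1 higher and 1 lower at an unadjusted p under 0.05 (11.1% and 12.2% of all genes), edgeR 0 and DESeq2 1 higher. In testes limma called 3 higher, Trib2 (log2 change 0.57), Atf7 (0.35) and Sesn1 (0.31), and 1 lower, Nupr1l (-0.32), against 9.74% and 10.7% of all genes. At an unadjusted p under 0.05 it had 6 higher and 3 lower, where 18.1% and 18.8% of all genes were, and edgeR and DESeq2 each called 4 higher and 2 lower.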

How the data were processed

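The authors made stranded libraries from total RNA depleted of ribosomal RNA, aligned paired reads with STAR to mm10 and counted them with RSEM on GENCODE M21. Versions and the counting strand were not given in the sources used here. The deposited values are expected counts per gene, not normalized. Between 12.3% and 16.6% of a library's nonzero values were not whole, and counts were rounded for edgeR and DESeq2. All 24 columns matched a label.

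Each tissue was fitted apart. Genes with at least 1 CPM in at least 4 of its libraries were quantile normalized with voom and tested with limma 3.58.1 in R 4.3.3 (two-sided, Benjamini-Hochberg adjusted p under 0.05). Differences of the KO effect and of WT levels between tissues were tested with limma-voom and TMM factors over all 24 libraries, on genes that passed in all 3 tissues and in at least 1, respectively. Alternatives were TMM, edgeR 4.0.16, DESeq2 1.42.0, other filters, sample quality weights, 1 common fit, removal of abundant noncoding RNAs, marker covariates and leaving out each library. Summing libraries with neighbouring numbers was added after the data were seen. Shares of all genes are those of the main limma fits, and none were taken for the alternatives. Length-scaled CPM used merged exon lengths, and CPM means are unadjusted.

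The regulators, gene lists and tests were chosen with earlier results of these data known, so no p was adjusted over a list alone. The rule for named genes took all regulators, the 6 response genes with the lowest p among those called in each tissue, each called kinase or paralog, and the 5 genes most like Atf4. Mthfd2, Vegfa, Slc7a11, Ppp1r15a, Ddit4, Mars, Eif2ak4, Eif2ak3, the remaining called genes and the markers were named after their values were seen. Of the 49 response genes, 36 matched the RefSeq promoter table. Steps were tested on simulated data. Replicate pairs differed by more than counting noise, with a chi-square per gene of at least 2.31. Intervals cover 95%.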

Additional observations from a re-analysis of the deposited data

Results flagged for a closer look

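Of 64 groups of 4 libraries examined, 6 held a library far from the other 3, and chance alone sets about 1 in 20 groups apart in this way. Atf4 in liver KO replicate 5 was at 82.1 CPM, with the next library at 76.9. Atf3 in liver WT replicate 1 was at 0.899 CPM (next 0.467) and in liver KO replicate 8 at 0.297 CPM (next 0.528), and in testes WT replicate 1 at 0.0623 CPM (next 0.124), on 2 to 29 counts. The second Ddit3 identifier had 0.0923 CPM in liver WT replicate 2 and 0.0316 CPM in cerebellum WT replicate 1, with 0 in the other libraries of those groups, all under the limit of 3 counts.

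Of 21 tests of a KO effect between tissues, 7 passed. Over all genes, 7.67% differed between cerebellum and liver, 15.9% between testes and liver and 14.5% between testes and cerebellum. For testes and liver, 1 of 6 regulators passed with Chac1 left out, which is near the share of all genes. Cerebellum differed from liver for Atf5 (0.64 on the log2 scale), Chac1 (1.35) and Sesn2 (0.80). Testes differed from liver for Ddit3 (-0.65), and testes from cerebellum for Atf5 (-0.75), Ddit3 (-0.72) and Chac1 (-1.82). Chac1 passed the filter in testes through its WT libraries, and no difference is read for it there.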

How the results depend on the processing

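Of 424 alternative values for single regulators, 378 kept their sign and side of the threshold. The 5 regulators called in cerebellum became 3 with the midbrain covariate and 1 in 1 fit of all 24 libraries, and the 21 response genes became 12 and 8. Leaving out a library gave 4 to 5 and 15 to 25. In liver the 0 regulators became 1 with DESeq2, quality weights or 1 common fit, and leaving out a library gave 0 to 1 regulators and 4 to 8 response genes in place of 8. In testes the 0 regulators became 2 with quality weights (Cebpb and Chac1) and 1 in the common fit (Ddit3), with 0 to 1 on leaving out a library (Chac1 without WT replicate 1), where Chac1 had passed the filter through its WT libraries and no call is read for it, and the 7 response genes became 11 with DESeq2, 12 in the common fit and 0 with the Sertoli covariate, with 2 to 12 on leaving out a library. The 3 effects that differed between cerebellum and liver became 1 when genes passing in at least 1 tissue were tested, and 2 to 4 on leaving out a library. The 1 between testes and liver became 0 there and 2 with edgeR or quantile normalization, and 1 to 2 on leaving out a library. When neighbouring libraries were added together (tried once the data were known, and not for differences between tissues), the regulators called were 2 in cerebellum and 0 in liver and testes, and the response genes 8, 0 and 0. The causes were not tested, but that fit has fewer samples. The Sertoli level did not overlap between genotypes, so its fit cannot tell that level and genotype apart. Shares of all genes were not taken for these alternatives.

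Signs turned only for changes that had not been called. In liver, Atf4 was -0.0243 with TMM, -0.0567 with edgeR, -0.0523 with DESeq2 and -0.17 with quality weights, and Cebpg -0.01005 with TMM, -0.00522 with edgeR and -0.00237 with DESeq2. In testes, Sesn2 was -0.00796 with quality weights, and with the Sertoli covariate Atf4 was -7.89e-05, Atf5 -0.0918, Ddit3 0.0433 and Sesn2 -0.37. On leaving out a library, the liver ranges were -0.0972 to 0.13 (Atf4), -0.61 to 0.0724 (Chac1), -0.15 to 0.078 (Cebpb) and -0.0306 to 0.0563 (Cebpg), and that of Atf4 in testes -0.00734 to 0.0485.

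WT and KO libraries of a tissue share no replicate number. Across tissues, libraries with the same number deviated together in few cases (r of -0.18 to 0.27, over 0.1 in 5 of 24, best match in 9 of 24), so the numbers were not taken to pair them. With a replicate block, 2 effects differed between testes and liver in place of 1, and 4 between testes and cerebellum in place of 3, Chac1 included. The values of Atf3, Nupr1 and, outside liver, Trib3 rest on few counts, and the WT libraries of liver were spread widely for Atf4.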

Other observations

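The genes whose deviations from their group means were most like those of Atf4 over the 24 libraries were Unc13b (Pearson r 0.92), Lgals1, Zfp445, Arl16 (each 0.87) and Fam118b (0.86), of 11111 genes ranked. Over the 8 liver libraries alone their r was 0.92 to 0.98, so the likeness rests mostly on the liver. Among the regulators Ddit3 ranked 61 (0.74) and Cebpb 1123 (0.44), while Atf5 (-0.34) and Sesn2 (-0.38) lay at the other end. The points share libraries, depth and tissue, and these values are a description. Macrophage markers gave 0 calls of 8 tested in cerebellum, and 0 with edgeR or DESeq2. At an unadjusted p under 0.05, limma had 2 higher there, where 12.3% of all genes were. In liver 1 of 10 was called higher (Lyz2, log2 change 0.41), against 2.79% of all genes. In testes 1 of 9 was called lower (Aif1, -0.33), against 10.7% of all genes.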
